A study of Ictalurus punctatus with 24 samples.

Results

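The 200 most abundant noncoding transcripts of channel catfish intestine and liver were described across tissue, gut library type and dietary frass. They were the 200 transcripts of highest mean among the 7942 rows that carry a RefSeq noncoding (XR) identifier, in tables of 63022 transcripts. The mean was taken over 12 intestine and 10 liver libraries in CPM, a transcript's count divided by all counts of its library and scaled to a common total. The members were thus chosen by their measured level, and their abundance is given as a description with no test. CPM is not corrected for transcript length, so the rank orders counts and not molecules.

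The libraries came from Marion strain channel catfish (Ictalurus punctatus) fingerlings fed for 10 weeks with a control diet (0 g/kg), a low-frass diet (50 g/kg) or a high-frass diet (300 g/kg). Frass is the residue left by black soldier fly larvae, and it took the place of part of the wheat, soybean and corn ingredients, so more frass also meant less of these. Each tissue had 4 libraries per diet, and each library was a pool of several fish. A pool carried the same code (A or B with a number) in both tissues. GEO's labels put 3 fish in a pool and the study's methods 4 fish from an aquarium, so p-values measured the spread between pools.

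Long noncoding RNAs (lncRNAs) are spliced, usually polyadenylated transcripts without a long reading frame, and many are made in only 1 or a few tissues. RefSeq also gives XR identifiers to noncoding splice variants of protein-coding genes, transcribed pseudogenes and small structural RNAs. Selection for poly(A) tails enriches lncRNAs and splice variants and depletes small structural RNAs. In a bulk tissue, fewer cells of a type and less RNA per cell cannot be told apart.

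Library totals were 12534783 to 17371695 counts in intestine and 10494755 to 15604418 in liver. Hepatocyte markers (13 of 16 listed genes found, apobb.1 and itih2 at 0) summed to 186864 to 284574 CPM in the 10 livers used, and enterocyte markers (10 of 12 found, cdh17, chia.1, cldn15a, malrd1 and si at 0) to 2.17 to 5.57 CPM. Exocrine pancreas markers (6 of 17 found) summed to 52275 to 107980 CPM in these 10 livers. A liver value below is thus that of liver with pancreas tissue, and the part of each was not tested. In the low-frass liver replicate 3, which the study removed, hepatocyte markers summed to 848 CPM and enterocyte markers to 2815 CPM. Across the 200 members that library correlated with the intestine libraries at a median r of 0.895 and with the kept livers at 0.108. Its tissue goes against its label, and it enters no comparison except where it is put back by name. The study also removed high-frass liver replicate 3, of low RNA integrity, whose members correlated with the kept livers at 0.915.

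The members were mostly lncRNAs. Of the 200, 168 (84%) were lncRNAs, against 54.0% of all XR rows, and 25 (12.5%) were noncoding transcripts of protein-coding genes, against 24.5%. The other members were 3 transcribed pseudogenes, 2 transcripts of type misc_RNA, 1 further ncRNA and 1 snoRNA. None was among the 1019 ribosomal RNA rows, whose highest mean was 0.600 CPM, or the 394 small nuclear RNA rows, whose highest mean was 0.264 CPM. Members came from genes with a single annotated transcript in 172 of 200 cases (86%), against 49.1% of all XR rows. The counting gave a read to a transcript only where no other transcript shared the sequence, and its part in this share was not tested.

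The lncRNA members did not stand out by the length of their gene. Their median gene length was 3912.5 bp (536 to 40363 bp), beside 3893.5 bp over all 2890 lncRNA genes. Of the 166 placed on a chromosome, 55 overlapped a protein-coding gene and a further 98 had such a gene within 10 kb. Members lay on 29 chromosomes, with 16 on chromosome 7 (Coco_2.0 assembly), and 2 were not placed. The counting did not use strand, and reads in exons shared by a member and an overlapping gene were given to neither. Whether the reads counted for such a member came from its own strand was not tested.

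The 25 members from protein-coding genes usually took nearly all counts given to their gene. In 22 of the 25 the noncoding transcript held over 50% of the gene's counts, in 12 the other transcripts were at 0, and the median share was 99.97%. The lowest shares were 5.49% in selenow2a, a selenoprotein gene, 6.31% in etnk1, an ethanolamine kinase, and 44.0% in rsrp1, an arginine and serine rich protein. Reads in exons that the variants share were given to none of them, so these shares do not measure the gene's output. The members were chosen for high counts of their own, which favours high shares. No share was taken over the other noncoding transcripts of coding genes, so the shares cannot be read as a trait of these genes. Their host genes included ca5a, a mitochondrial carbonic anhydrase, znf207a and tardbpa, whose proteins bind RNA or act in splicing, and cirbpa, a cold-inducible RNA-binding protein. Of the gene groups searched by symbol pattern, RNA processing matched 1 host (znf207a) and the others matched 0. The patterns did not cover tardbpa, cirbpa, rsrp1 or ca5a. They also cannot match hosts with a LOC symbol, such as LOC124626015, so the search says nothing about those hosts.

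Abundance fell steeply with rank. The members held 94.4% of the CPM of all XR rows, and the first 12 held 64.5% of the members' CPM. There were 13 members with a mean of at least 100 CPM and 62 with at least 10 CPM. At the edge of the list, the last members were LOC128635126 at 1.535 CPM and LOC128628851 at 1.509 CPM, and the first outside it was LOC124626003 at 1.507 CPM. A count was present in all 22 libraries for 146 members, in all 12 intestine libraries for 181 and in all 10 livers for 160. The members together took 0.376 to 1.23% of the counts of an intestine library and 0.294 to 0.475% of those of a kept liver.

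**Figure D1:**
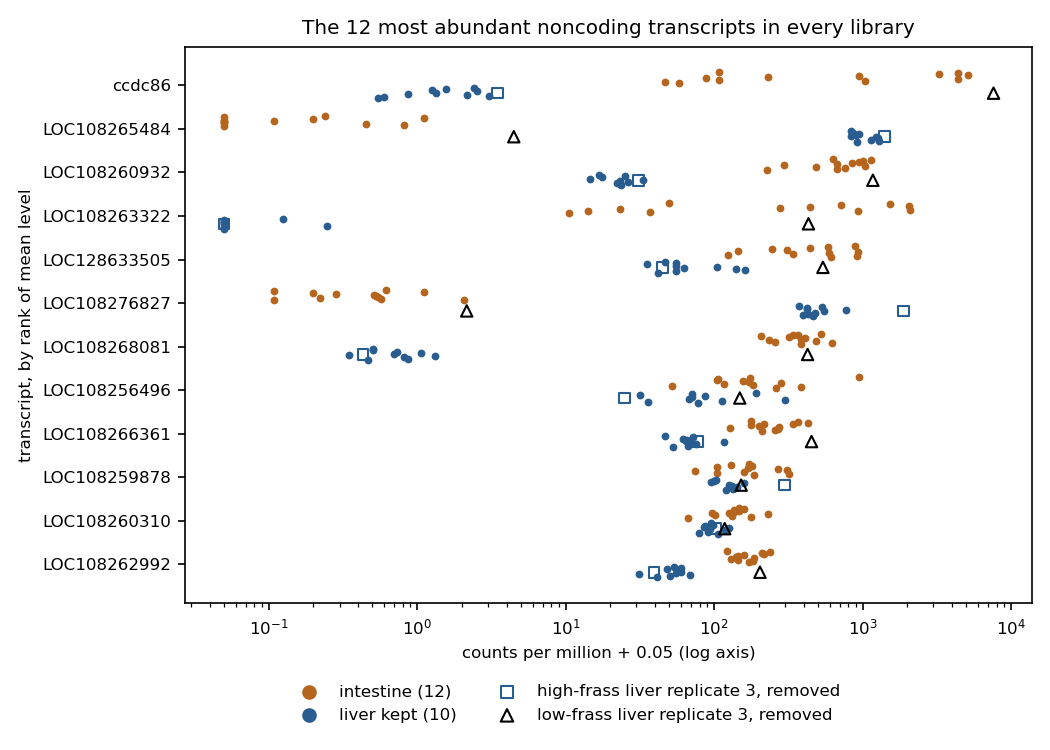
CPM with 0.05 added (log axis) of the 12 most abundant noncoding transcripts, 1 point per library, for 12 intestine libraries, 10 kept livers and, as open symbols, the 2 livers the study removed. Within intestine ccdc86 spreads from 46.4 to 5090 CPM, LOC108265484 and LOC108276827 sit near 0 in intestine, and the open triangle (low-frass liver replicate 3) follows the intestine points.

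The highest member was a noncoding transcript of ccdc86 (chromosome 29, 16057579 to 16062558), whose protein is nucleolar. In intestine it had 4392, 88.6, 231 and 951 CPM in control replicates 1 to 4, then 57.9, 46.4, 1031 and 108 in the low-frass replicates and 5090, 3268, 4379 and 108 in the high-frass replicates. In the kept livers it ranged from 0.497 to 3.01 CPM with a median of 1.40. Every intestine library was above every kept liver, and 6 intestine libraries, from all 3 diets, had at least 951 CPM. The library labelled low-frass liver replicate 3 had 7610 CPM. The gene's other transcript had medians of 7.80 CPM in intestine and 2.88 CPM in liver.

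LOC108263322, an lncRNA gene on chromosome 3 (23379467 to 23383601), varied in the same libraries. It had 2088, 23.1, 277 and 440 CPM in control intestine, 10.5, 37.2, 929 and 14.2 in low-frass intestine and 2060, 715, 1523 and 49.7 in high-frass intestine. Its count was 0 in 8 of the 10 kept livers and reached 0.199 CPM in the others. The same replicates were high for ccdc86 and for LOC108263322, in each diet.

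The second most abundant member, LOC108265484 (chromosome 1, 8089927 to 8091782), was a liver transcript. It had 915, 1294, 1131 and 1270 CPM in control livers, 1224, 835 and 905 in the low-frass livers and 947, 866 and 841 in the high-frass livers. In intestine it lay between 0 and 1.06 CPM, with 6 libraries at 0. All livers were above all intestine libraries, and the 3 diets overlapped. LOC108263427, 2004 bp away and overlapping the apolipoprotein gene apoc1, had 2.58 to 19.4 CPM in liver and 0 to 0.689 in intestine; it was named after its values were seen.

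LOC108276827 (chromosome 16, 26340543 to 26346259) overlapped ambp, the gene of the plasma protein alpha-1-microglobulin and bikunin. It had 373 to 769 CPM in liver with a median of 445, and 0.0586 to 2.03 in intestine. The transcript of ambp had 6145 to 7564 CPM in liver and at most 8.26 in intestine. Both loci were thus high in liver. Reads in any exon shared by both were given to neither, and the strand of the reads counted was not used.

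LOC108268081 and LOC108260932 were intestine transcripts at every diet. LOC108268081 had 207 to 619 CPM in intestine (median 375) and 0.296 to 1.26 in liver. LOC108260932 had 226 to 1136 CPM in intestine (median 713) and 14.5 to 32.9 in liver. Neither overlapped between the tissues, and LOC108260932 was well above 0 in every liver.

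The other 6 of the first 12 were abundant in both tissues. LOC128633505 had 124 to 936 CPM in intestine (median 511) and 35.1 to 162 in liver (median 55.6). LOC108256496 had medians of 173 and 74.7 CPM, LOC108266361 of 236 and 66.3, LOC108262992 of 165 and 54.4, LOC108259878 of 170 and 129, and LOC108260310 of 135 and 93.8, in intestine and liver. The intestine and liver ranges overlapped for LOC128633505, LOC108256496, LOC108259878 and LOC108260310, and did not for LOC108266361 (128 to 431 against 46.9 to 117 CPM) and LOC108262992 (122 to 237 against 31.3 to 68.9 CPM).

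Tissue was the comparison in which the members differed most. In CPM, 89 members (44.5%) had every intestine library above every kept liver, beside 63.6% of all 10895 transcripts tested, and 23 (11.5%) had every liver above every intestine library, beside 4.68%. The remaining 88 overlapped. The median over 12 intestine libraries was above that of the livers for 164 members (82%), beside 89.3% of all tested transcripts. A median over 100 times that of the other tissue was found for 19 members (9.5%) toward intestine, beside 16.9%, and for 14 (7%) toward liver, beside 2.72%. Any median above 0 beside a median of 0 was counted here, among members and all transcripts, and then no fold is measured. LOC128635155, with medians of 1.33 CPM in intestine and 0 in liver, was counted in this way. The members were chosen by a mean of these same CPM values, which admits transcripts that are high in only a single tissue. All tested transcripts were not chosen in this way. Differences between the shares of members and of all transcripts, here and in the tissue calls below, may thus follow from the choice. They cannot be read as a trait of noncoding transcripts.

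The liver gives a large share of its counts to a few secreted proteins, so the edgeR test used trimmed mean of M-values (TMM) scaling, with factors of 1.43 to 2.41 in intestine and 0.408 to 0.524 in liver. With a call meaning an adjusted p under 0.05 and a fold above 2, 56 members (28%) were higher in liver, beside 17.9% of all tested transcripts. There were 55 (27.5%) higher in intestine, beside 37.1%. The median log2 difference, liver minus intestine, was 0.10 over the members and -0.43 over all tested transcripts. With library totals in place of TMM the median of all transcripts shifted by -1.96, and the calls became 32 toward liver and 143 toward intestine. Relative to the median of all transcripts the members' median was 0.53 under both scalings, and 121 members lay above that median under both. A change of scaling moves most differences by a like amount, so this likeness follows from the arithmetic and tests nothing. Calls in all 4 fits (edgeR with TMM, with DESeq2 size factors and with library totals, and DESeq2) covered 32 members (16%) toward liver, beside 6.88% of all transcripts, and 54 (27%) toward intestine, beside 36.8%. The median of all transcripts was -0.45 with DESeq2 and with its size factors, near that with TMM. Only library totals moved it far, toward intestine, so the loss of liver calls and the keeping of intestine calls follow from that shift.

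With TMM, both directions were found among the 168 lncRNAs, of which 50 were called toward liver and 48 toward intestine. Of the 25 transcripts of coding genes, 3 were called toward liver and 7 toward intestine. Over all tested transcripts 17.9% were called toward liver and 37.1% toward intestine. The 56 liver-called members made up a median of 81.9% of the members' CPM in liver and 9.96% in intestine, and the 55 intestine-called members 55.1% in intestine and 1.72% in liver. Where a liver-called member had a tested coding gene within 10 kb (31 members), that neighbour was called toward liver in 12 cases (38.7%, beside 17.9% of all transcripts) and toward intestine in 6 (19.4%, beside 37.1%). For the 27 intestine-called members with such a neighbour, it was called toward intestine in 12 cases (44.4%, near the 37.1% of all transcripts) and toward liver in 0. These are counts of neighbours of lncRNA members and not independent genes. They include coding genes that overlap the member. For such loci, reads in shared exons were given to neither, and the strand of the reads counted was not used.

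**Figure D2:**
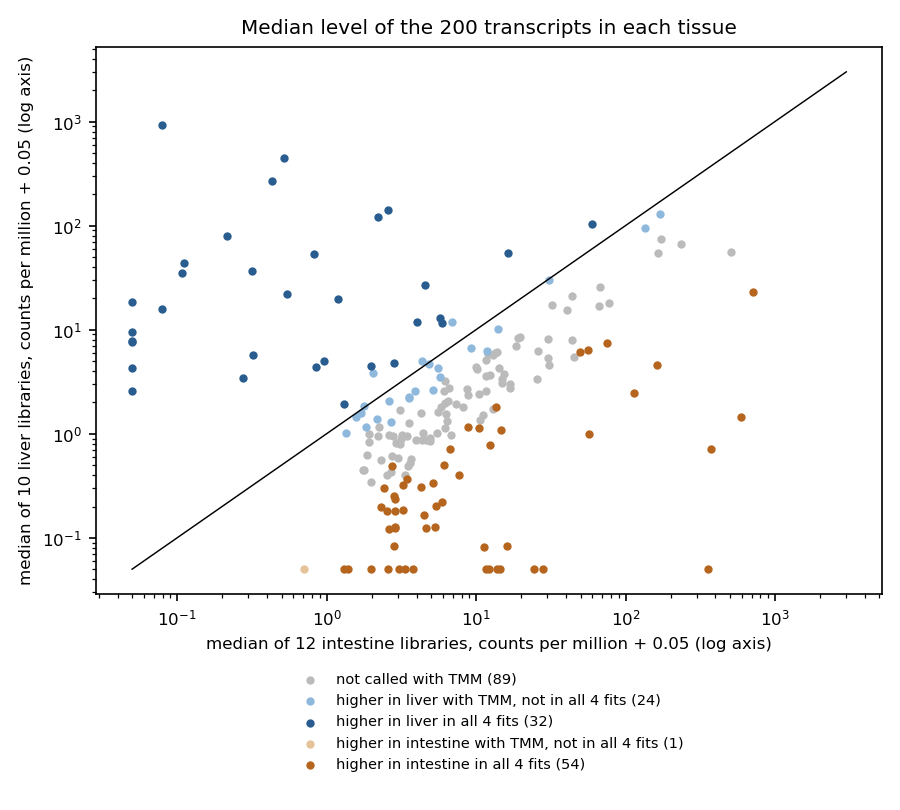
Median CPM of each of the 200 members in 12 intestine libraries (x axis) and 10 kept livers (y axis), both on log axes with 0.05 CPM added, coloured by the TMM call and by whether it held in all 4 fits; the line marks equal values. Toward liver 32 of the 56 calls held in all 4 fits, and toward intestine 54 of the 55. Of the 4 fits only library totals moved the median of all transcripts far, by -1.96 toward intestine. The unequal loss of calls follows from that shift.

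The members highest in liver were near absent from intestine. LOC108265484 differed by 14.74 (log2, SE 0.75, edgeR adjusted p = 7.06e-13) and LOC108276827 by 11.83 (SE 0.58, edgeR adjusted p = 3.66e-13). LOC128633085 had 31.5 to 59.8 CPM in liver and at most 0.296 in intestine. LOC108259970, a transcribed pseudogene, had 98.7 to 409 CPM in liver (median 270) and at most 0.847 in intestine. For both, the lowest liver was above the highest intestine library, and the log2 differences were 11.17 (SE 0.28) and 11.11 (SE 0.48) with edgeR adjusted p = 6.44e-17 and 5.35e-14. LOC108278873 had 17.0 to 96.0 CPM in liver, LOC108276589 4.39 to 17.3 and LOC108258032, which overlaps the proteasome gene psmc6, 51.7 to 110 CPM. LOC128628918 had 0.682 to 10.0 CPM in liver and no count in any intestine library. Against a floor of 3 counts over all intestine libraries it was at least 230-fold higher in liver.

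The members highest in intestine included 6 without a count in any kept liver. LOC108270852 had 9.74 to 55.9 CPM in intestine with a median of 28.1, and LOC108272542 12.6 to 65.0 with a median of 24.4. Against a floor of 3 counts over all kept livers they were at least 1322-fold and at least 1265-fold higher in intestine. LOC128635155 and LOC108275034 (at least 227-fold and 205-fold) and LOC108280698 and LOC108276190 (at least 143-fold and 128-fold) were the others. For LOC128635155, LOC108275034, LOC108280698 and LOC108276190 the tissues overlapped, and the folds rest on counts pooled over all intestine libraries. LOC108280698 and LOC108276190 were named after their values were seen. LOC108272542 had 58.9 CPM in the library labelled low-frass liver replicate 3.

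Several further members kept a few counts in liver. LOC128632956 had 2.11 to 35.9 CPM in intestine and at most 0.290 in liver, LOC128635407 2.19 to 20.8 and at most 0.199, and LOC108279614 2.53 to 38.6 and at most 0.133. Their log2 differences were -8.52 (SE 0.86), -8.42 (SE 0.88) and -7.64 (SE 0.85), with edgeR adjusted p of 3.10e-07, 2.51e-07 and 2.42e-07. LOC108263322 differed by -12.86 (SE 1.51, edgeR adjusted p = 4.61e-07), ccdc86 by -7.31 (SE 0.87, edgeR adjusted p = 2.95e-07) and LOC108268081 by -7.24 (SE 0.38, edgeR adjusted p = 8.73e-13).

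For the members abundant in both tissues the direction turned with the scaling. LOC108260310 differed by 1.49 with TMM (SE 0.15, edgeR adjusted p = 3.70e-08) and by -0.49 with library totals, and LOC108259878 by 1.35 (SE 0.26, edgeR adjusted p = 9.32e-05) and -0.56. LOC108256496 (0.56 and -1.26), LOC108266361 (0.15 and -1.85) and LOC108262992 (0.28 and -1.69) were not called with TMM and turned in the same way. LOC128633505 was lower in liver under both, by -0.98 (SE 0.39, edgeR adjusted p = 0.0289, under the fold needed for a call) and -2.87. LOC108260932 was lower in liver by -2.97 (SE 0.21, edgeR adjusted p = 1.25e-10).

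The smallest tissue differences with TMM belonged to rsrp1 (0.00, SE 0.43), LOC128635300 (-0.01, SE 0.16), LOC108270929 (0.03) and cirbpa (0.04), the last a transcript of a cold-inducible RNA-binding protein. In CPM, rsrp1 had 3.50 to 28.3 in intestine and 0.994 to 12.4 in liver, and LOC128635300 3.76 to 10.3 and 1.06 to 2.44. The CPM of LOC128635300 did not overlap between the tissues, so its near-zero difference holds relative to the TMM scale only.

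Neighbouring members were not always alike. Of the 4 pairs of members within 10 kb of each other, 3 were called in the same direction. In the other, on chromosome 28, LOC108260310 (3540213 to 3544010) was called toward liver, and LOC108260311, 8378 bp away, toward intestine. LOC108260311 had 12.7 to 263 CPM in intestine and 0.871 to 3.80 in liver (log2 difference -3.51, SE 0.36, edgeR adjusted p = 3.19e-08); it was named after its values were seen. In CPM both members had higher medians in intestine.

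Among members of named classes, ca5a, a transcript of mitochondrial carbonic anhydrase, had 12.9 to 103 CPM in intestine (median 59.8) and 82.4 to 301 in liver (median 105). Its intestine values fell into a lower set (12.9 to 35.1 CPM) and a higher set (84.5 to 103 CPM), which are the gut clusters described below. The intestine median lies between these sets. Over all libraries ca5a was higher in liver by 3.24 (log2, SE 0.30, edgeR adjusted p = 7.88e-09). The 403 bp ncRNA LOC124628223 had 2.29 to 10.5 CPM in intestine and 3.26 to 6.08 in liver (log2 difference 2.02, SE 0.20, edgeR adjusted p = 2.65e-08). The 127 bp snoRNA LOC124629126, of a class that guides chemical modification of other RNAs, had 1.23 to 6.73 and 0.148 to 2.72 CPM (-0.35, SE 0.43, edgeR adjusted p = 0.476). These differences are on the TMM scale. With library totals ca5a had 1.17 and was still called toward liver. LOC124628223 then had 0.056 and was not called, and LOC124629126 had -2.30 and was called toward intestine. A poly(A)-selected library is not made to measure so short a transcript.

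Within intestine, the libraries fell into a pair of clusters that crossed the diets. They were found by hierarchical clustering of 9879 protein-coding transcripts, so no member entered the clustering, and they are groups found in the data and not groups of the study. The median r was 0.971 within clusters and 0.889 between them. Cluster 1 held low-frass replicates 1, 2 and 4, control replicates 2 and 3 and high-frass replicate 4. Cluster 2 held low-frass replicate 3, control replicates 1 and 4 and high-frass replicates 1, 2 and 3. Anterior gut markers (6 of 10 found) summed to 15092 to 46123 CPM in cluster 1 and 260 to 509 CPM in cluster 2 (scarb1 at 0 there). Posterior gut markers (8 of 11 found, dab2 at 0) summed to 983 to 8240 and 5936 to 8681 CPM, which overlap. Exocrine pancreas markers (6 of 17 found) summed to 31.6 to 20790 CPM in cluster 1, with the highest value in high-frass replicate 4. In cluster 2 they summed to 22.3 to 49.7 CPM (amy2a at 0 there), so these ranges overlap too. The part of gut composition in the member values below was not tested.

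The members split between the clusters about as often as all transcripts did. Of 184 members tested, 20 (10.9%) were higher in every cluster 1 library on the TMM scale, beside 10.7% of all 10401 transcripts, and 15 (8.15%) were higher in every cluster 2 library, beside 9.28%. The median size of the log2 ratio of cluster medians, on the TMM scale, was 0.52 for the members and 0.40 for all transcripts. In CPM, the ratio of cluster medians was over 2-fold for 48 members (26.1%), beside 22.2% of all transcripts. Overlap depended on the scale. LOC108260932 had 226 to 669 CPM in cluster 1 and 756 to 1136 in cluster 2, yet its clusters overlapped on the TMM scale. These shares are descriptions with no test, because the clusters came from the same libraries.

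**Figure D3:**
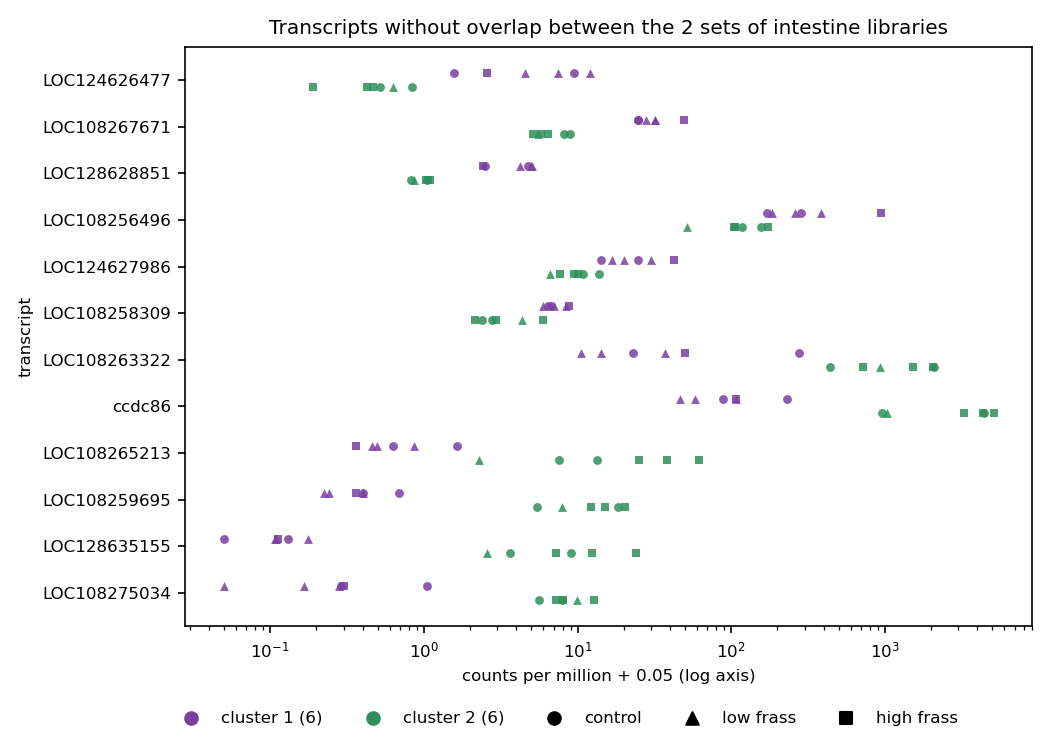
CPM with 0.05 added (log axis) of the 6 members in each direction with the largest ratio of cluster medians, among those without overlap between clusters on the TMM scale. There is 1 point for each of the 12 intestine libraries, coloured by cluster and shaped by diet. In CPM, LOC108256496 and LOC108258309 overlap between the clusters. In cluster 2, ccdc86 and LOC108263322 lie at 951 to 5090 and 440 to 2088 CPM, against at most 277 CPM in cluster 1, while LOC108267671 lies at 24.5 to 48.9 CPM in cluster 1 and 5.08 to 8.90 in cluster 2.

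Cluster 2 was marked by ccdc86 and LOC108263322, which rank 1 and 4 among the members. The ccdc86 transcript had 46.4 to 231 CPM in cluster 1 (median 98.1) and 951 to 5090 in cluster 2 (median 3823), a log2 ratio of cluster 1 to cluster 2 of -5.28. LOC108263322 had 10.5 to 277 CPM (median 30.1) and 440 to 2088 (median 1226), a log2 ratio of -5.32. The clusters did not overlap for either. The lysosomal beta-galactosidase gene glb1, which starts 100 bp from ccdc86, had 54.8 to 198.8 CPM in cluster 1 and 932 to 1998 in cluster 2.

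Less abundant members marked cluster 2 as well. LOC108265213 had 0.313 to 1.60 CPM in cluster 1 and 2.25 to 61.9 in cluster 2 (log2 ratio -4.28), and LOC108259695 0.173 to 0.638 and 5.36 to 20.5 (-4.08). LOC128635155, which overlaps hoxc12a, a homeobox gene of the posterior body axis, had 0 to 0.127 and 2.54 to 24.0 CPM (-3.94), and hoxc12a itself 0 to 0.0586 and 3.00 to 23.9 CPM. LOC108275034 had 0 to 0.991 and 5.59 to 12.8 CPM (-3.51). LOC108276190, at 46 bp from hoxc11a and named after its values were seen, had 0 to 0.175 and 2.33 to 8.23 CPM (-3.42). Both members beside posterior homeobox genes were thus near 0 in cluster 1 and in liver.

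Among members without overlap on the TMM scale, those high in cluster 1 differed by smaller ratios. In CPM, LOC108256496 and LOC108258309 did overlap between the clusters. LOC124626477 had 1.51 to 11.9 CPM in cluster 1 and 0.141 to 0.783 in cluster 2 (log2 ratio 2.77), and 13.4 to 26.4 CPM in liver. LOC108267671 had 24.5 to 48.9 and 5.08 to 8.90 CPM (2.21). It overlaps mettl3, the RNA adenosine methyltransferase, whose own transcript went the other way with 14.8 to 22.6 and 26.04 to 55.4 CPM. LOC128628851 (2.38 to 5.02 against 0.777 to 1.05 CPM), LOC124627986 (14.1 to 42.2 against 6.57 to 13.7) and LOC108258309 (5.87 to 8.71 against 2.10 to 5.92) had log2 ratios of 1.73, 1.16 and 1.15. With overlap, LOC128634976 had the largest ratio toward cluster 1 (3.28), at 0.173 to 107 CPM against 0.0577 to 1.60 CPM; it was named after its values were seen. LOC108256496 had 171 to 938 and 51.6 to 175 CPM (1.28), and its highest value was that of high-frass replicate 4. Among the intestine libraries that replicate also had the most pancreas markers, fewer than any kept liver. The part of pancreas tissue in its value was not tested.

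The study asked how dietary frass changes gene expression, and each tissue was tested across its 3 diets. With DESeq2 and p-values adjusted by fdrtool, the study reported differing genes for both frass diets against control in each tissue. Its thresholds were those used here. The members include a transcript of znf207a, a gene in the study's lists. No member and no transcript passed an adjusted p under 0.05 with a fold above 2 in any of the 6 comparisons with edgeR (0 of 184 members in intestine, 0 of 157 in liver, beside 0% of all transcripts). DESeq2 called 1 member in high-frass against low-frass intestine (LOC108265213, DESeq2 adjusted p = 0.00415), 1 in high-frass against control liver (LOC108271815, DESeq2 adjusted p = 0.00738) and 0 in the others. Over all transcripts DESeq2 called 12 of 10401 (0.115%) and 5 of 7213 (0.0693%) in these comparisons. Without the filter on low counts edgeR called 10 of 194 members (5.15%) in high-frass against control liver, beside 0.761% of all 17475 transcripts. It then called 2 members (1.03%) in high-frass against low-frass liver, beside 0.406%, and 1 (0.515%) in low-frass against control liver, beside 0.343%. The filter had kept 157 of these 194 members and 7213 of these 17475 transcripts. The shares without the filter thus compare unlike count levels and cannot be read as a trait of the members. The members' SE was larger than that of other transcripts, with medians of 0.44 and 0.35 in intestine and 0.42 and 0.29 in the high-frass liver comparison. The comparisons within a tissue share libraries and are not independent of each other. The members given below are those with the smallest unadjusted p in each comparison.

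In low-frass against control intestine, 7 members (3.80%) had an unadjusted p under 0.05 with edgeR, beside 1.04% of all transcripts, and all 7 were lower (DESeq2 gave 8). The smallest edgeR adjusted p was 0.9996. The median log2 difference was 0.00 over the members and 0.03 over all. LOC108269113 had 6.19, 2.79, 1.51 and 3.26 CPM in controls and 0.410, 1.90, 1.67 and 1.09 in low-frass libraries (log2 difference -1.21, SE 0.41, edgeR adjusted p = 0.9996). LOC128634898 had 19.4, 7.82, 2.04 and 7.69 and then 2.28, 4.25, 2.48 and 2.59 CPM (-1.36, SE 0.48, edgeR adjusted p = 0.9996). The groups overlapped in CPM for both.

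In high-frass against control intestine, 5 members (2.72%) had an unadjusted p under 0.05, beside 2.84% of all transcripts, with 2 higher and 3 lower (DESeq2 gave 6, and the smallest edgeR adjusted p was 0.998). LOC108276439, a noncoding transcript of a coding gene, had 37.4, 14.7, 18.5 and 31.9 CPM in controls, 12.2, 17.1, 15.8 and 13.2 in low-frass and 15.7, 17.0, 16.5 and 13.5 in high-frass libraries. It was lower by -0.68 (SE 0.21, edgeR adjusted p = 0.998) in high-frass and by -0.57 (SE 0.21, edgeR adjusted p = 0.9996) in low-frass, both against the same controls, of which replicates 1 and 4 were high. LOC108273786, which overlaps vps35l, had 3.06, 3.51, 2.51 and 3.19 CPM in controls and 2.25, 1.76, 1.95 and 1.13 in high-frass libraries (-0.87, SE 0.28, edgeR adjusted p = 0.998). Its groups did not overlap. LOC108266361 had 275, 201.04, 177 and 217 and then 337, 431, 367 and 176 CPM (0.51, SE 0.22, edgeR adjusted p = 0.998), with the high-frass replicate 4 just below the lowest control in CPM. That replicate is the high-frass library of gut cluster 1. Over the 3 diets LOC108266361 had 128 to 256 CPM in cluster 1 and 217 to 431 in cluster 2. The part of the cluster in its difference was not tested.

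In high-frass against low-frass intestine, 14 members (7.61%) had an unadjusted p under 0.05, beside 8.57% of all transcripts, with 10 higher and 4 lower (DESeq2 gave 16, and the smallest edgeR adjusted p was 0.567). LOC108265213 had 61.9, 25.1, 38.0 and 0.313 CPM in high-frass and 0.410, 0.445, 2.25 and 0.806 in low-frass libraries (4.71, SE 1.20, edgeR adjusted p = 0.567). The high libraries were the 3 high-frass pools of cluster 2, and the low-frass pool of cluster 2 was the highest of its group. LOC128629560, which overlaps the dehydrogenase gene hsd17b14, had 8.39, 2.47, 22.2 and 5.52 and then 1.70, 0.762, 0.923 and 0.806 CPM (2.91, SE 0.81, edgeR adjusted p = 0.567). High-frass held 3 libraries of cluster 2 and low-frass held 1, so diet and gut cluster moved together here. With the cluster as a block, 0 members were called in each intestine comparison. Without the block the count was 0 as well, so it shows nothing about the part of the cluster.

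In liver, low-frass against control gave 5 members (3.18%) with an unadjusted p under 0.05, beside 2.69% of all transcripts, with 2 higher and 3 lower (DESeq2 gave 8, and the smallest edgeR adjusted p was 0.9997). LOC108278274 had 0.994, 0.951, 1.09 and 0.530 CPM in controls and 0.296, 0.358 and 0.363 in low-frass livers (-1.50, SE 0.44, edgeR adjusted p = 0.9997), without overlap. The ca5a transcript had 103, 105, 104 and 82.4 and then 301, 163 and 104 CPM (0.79, SE 0.29, edgeR adjusted p = 0.9997). The transcript of arpc5la, a subunit of the actin-branching Arp2/3 complex, had 2.57, 1.70, 3.27 and 2.39 and then 4.52, 5.23 and 3.12 CPM (0.65, SE 0.26, edgeR adjusted p = 0.9997). The groups overlapped for ca5a and arpc5la.

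High-frass against control liver was the diet comparison with the most members below an unadjusted p of 0.05. There 21 members (13.4%) had an unadjusted p under 0.05, beside 5.19% of all transcripts, and 20 of them (12.7%) were lower, beside 3.15% of all transcripts that were lower. DESeq2 gave 24 members, and the smallest edgeR adjusted p among the members was 0.860. Of the 157 members tested, 117 (74.5%) were lower in high-frass livers, and the median log2 difference was -0.32 over the members and -0.01 over all transcripts. Over all 157 members, 11 (7.01%) had every high-frass liver below every control, beside 2.87% of all transcripts.

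LOC108271815 had 0.911, 1.63, 2.24 and 2.19 CPM in controls, 0.815, 0.645 and 0.798 in low-frass and 0, 0.392 and 0 in high-frass livers. Its high-frass values were below every control and every low-frass liver (-3.60 against control, SE 0.78, edgeR adjusted p = 0.860). Without high-frass replicate 2 its high-frass livers were all at 0, and the fitted difference became -7.66, which is no bound. The znf207a transcript, of a zinc finger protein of spindle assembly and splicing, had 0.580, 0.883, 3.40 and 2.12, then 1.04, 2.08 and 1.16, then 0.151, 0.196 and 0.454 CPM (-2.70, SE 0.66, edgeR adjusted p = 0.860). Its high-frass livers were again the lowest. LOC128629543 was the member with a higher value, with 2.48, 2.04, 1.73 and 1.92 CPM in controls and 2.94, 5.49 and 4.999 in high-frass livers (1.08, SE 0.30, edgeR adjusted p = 0.934), and it did not pass the adjusted test.

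The 20 lower members were also higher in some control pools than in others. Summed, they had 278, 288, 517 and 462 CPM in control replicates 1 to 4, 281, 428 and 344 in low-frass livers and 194, 227 and 232 in high-frass livers. For 16 of the 20, both control pools with a B code were above both with an A code, as for 60 of all 157 members (38.2%) and 17.5% of all transcripts, and the highest control was replicate 3 in 11 cases and replicate 4 in 8. LOC128633505, which was among the 20, had 41.6, 55.4, 162 and 140 CPM in controls, 62.3, 105 and 55.7 in low-frass and 35.1, 55.4 and 46.6 in high-frass livers, and the B-coded controls stood above every high-frass liver. What the letter stands for is not given in the sources used here. With the letter as a term, added after seeing the data, 8 members were lower at an unadjusted p under 0.05. Without control replicate 4 the count was 5 and the share of members with lower values 60.1%, and without control replicate 1 or 2 it was 28 or 27. With both removed livers put back the count was 9 and the share 58.0%. In the high-frass liver that the study removed, LOC108271815 had 0.953 CPM.

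**Figure D4:**
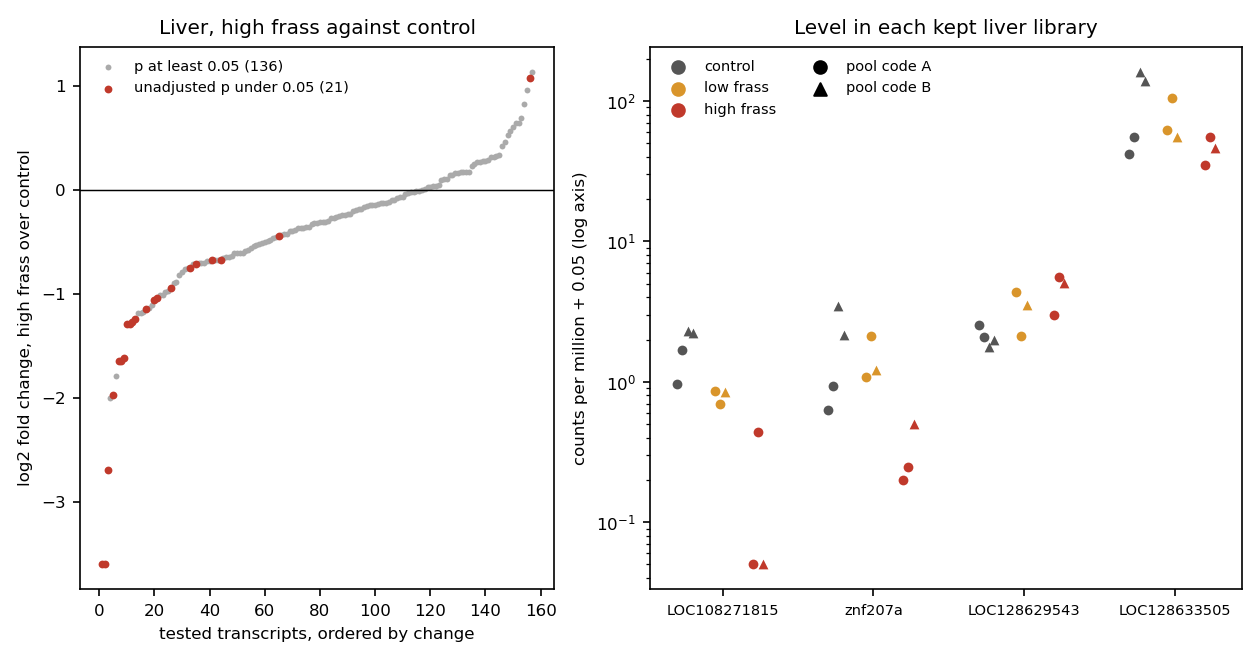
Left, log2 difference of high-frass from control liver for the 157 members tested with edgeR, in order of size, with the 21 of unadjusted p under 0.05 in red. Right, CPM with 0.05 added (log axis) of LOC108271815, znf207a, LOC128629543 and LOC128633505 in each kept liver, coloured by diet and shaped by the letter of the pool code; 117 of 157 differences lie below 0, and LOC128633505 has 162 and 140 CPM in the B-coded controls against 41.6 and 55.4 in the A-coded controls.

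In high-frass against low-frass liver, 6 members (3.82%) had an unadjusted p under 0.05, beside 2.34% of all transcripts, with 1 higher and 5 lower (DESeq2 gave 6, and the smallest edgeR adjusted p was 0.9998). The znf207a transcript was lower by -2.28 (SE 0.69, edgeR adjusted p = 0.9998) and LOC108271815 by -2.25 (SE 0.85, edgeR adjusted p = 0.9998), on the values above. The latter became -6.31 without high-frass replicate 2. LOC124628354 had 11.5, 50.4 and 11.9 CPM in low-frass and 10.6, 2.94 and 2.88 in high-frass livers (-1.96, SE 0.75, edgeR adjusted p = 0.9998), and its controls spread from 6.86 to 30.2 CPM. It was -0.90 without low-frass replicate 2 and -3.02 without high-frass replicate 1.

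Whether a diet acted differently in the 2 tissues was tested as an interaction over the 22 libraries. No member and no transcript of 10895 passed an adjusted p under 0.05 with edgeR. At an unadjusted p under 0.05 with edgeR there were 3 of 200 members and 317 of 10895 transcripts for low-frass. For high-frass there were 15 of 200 members and 459 of 10895 transcripts. The smallest edgeR adjusted p was 0.9999. A difference between the tissues in the response of a member was thus not detectable with these libraries.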

How the data were processed

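Poly(A)-selected RNA from pooled intestine and liver was sequenced by the authors on an Illumina HiSeq 4000 in paired reads, from NEBNext Ultra II libraries. Per the labels and the study's methods, reads were trimmed with Trimmomatic 0.38 after bcl2fastq 2.17, aligned to Coco_2.0 with STAR 2.7.8a and counted with HTSeq 0.9.0 by transcript, without strand, in union mode. The deposited values are raw counts per transcript, 1 table per tissue. The authors tested with DESeq2 1.40.1 and adjusted p-values with fdrtool. They left out liver pools B1 and B2, and so did the fits here.

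Members were ranked by mean CPM. edgeR 4.0.16 (limma 3.58.1, R 4.3.3) quasi-likelihood tests ran on every transcript passing filterByExpr (minimum count 10) with TMM scaling and Benjamini-Hochberg adjustment. Each tissue had 1 fit over its diets, and the tissue comparison and interactions used tissue by diet groups over 22 libraries. A call needed an adjusted p under 0.05 and a fold above 2. DESeq2 1.42.0 was an alternative, beside other scalings and filters, blocks, and leaving out each library. Summaries used Python 3.11.15, pandas 2.3.3, numpy 2.4.6 and matplotlib 3.10.9. The scripts were tested on simulated data.

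Named transcripts were the 12 most abundant, the 8 most different called in each tissue without overlap and the 4 least different, the 6 with the largest gut cluster ratio in each direction among those without overlap, the 3 with the smallest unadjusted p per diet comparison, the edge of the list, small RNA classes and transcripts of genes in the study's lists. Ranking per kb of exon was not made, since no exon lengths were used here. Cluster ratios used log2(CPM + 0.5), with TMM-scaled CPM for their median size. Overlap between clusters was judged on the TMM scale. Members and lists were chosen with earlier results of these data known. Gene names, classes and positions came from RefSeq (Coco_2.0). The main fits used no replicate block, since no label or method says that replicate numbers pair libraries across diets. In each diet replicates 1 and 2 had an A code and replicates 3 and 4 a B code. Deviations of libraries with the same replicate number correlated at -0.710 to 0.519 in intestine and -0.239 to 0.331 in liver. Such correlations cannot show whether a replicate number stands for a shared block. Intestine and liver of the same pool code correlated at a median of 0.0133 over 10 pairs, beside -0.0119 for other pools of the diet.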

Additional observations from a re-analysis of the deposited data

Results flagged for a closer look

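The values of the named members were searched for a library far from the others of its group of 4, by Dixon's criterion at 95%. Of 171 groups of libraries tested, 21 had such a library, beside about 8.6 at the chance rate of 1 in 20. Many of the named members were picked for a large gut cluster ratio, so their flags in a library that is alone of its cluster in its diet follow from that choice, and the number cannot be read against chance. All values are CPM, with the range of the other 3 libraries.

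Low-frass intestine replicate 3, the low-frass library of gut cluster 2, stood apart for 7 members. It was high for ccdc86 (1031 against 46.4 to 108), LOC108263322 (929 against 10.5 to 37.2), LOC108279614 (27.0 against 2.53 to 5.21), LOC108259695 (7.90 against 0.173 to 0.351), LOC128635155 (2.54 against 0.0576 to 0.127) and LOC108275034 (9.86 against 0 to 0.230). It was low for LOC108267671 (5.48 against 27.9 to 32.0). High-frass intestine replicate 4, the high-frass library of cluster 1, stood apart for another 7. It was high for LOC108256496 (938 against 104 to 175), LOC124626477 (2.51 against 0.141 to 0.414), LOC108267671 (48.9 against 5.08 to 6.33), LOC128628851 (2.38 against 0.988 to 1.05) and LOC124627986 (42.2 against 7.64 to 10.0). It was low for LOC128635300 (3.76 against 7.28 to 7.94) and ca5a (12.9 against 88.2 to 103).

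The other 7 were spread over 5 libraries. Control intestine replicate 2 was low for LOC108272542 (13.3 against 24.4 to 24.6) and high for LOC124626477 (9.49 against 0.466 to 1.51). Low-frass intestine replicate 2 was high for LOC128634898 (4.25 against 2.28 to 2.59) and LOC124628354 (7.87 against 0.404 to 1.61). Control intestine replicate 1 was high for LOC124628223 (10.5 against 3.85 to 4.47). Control liver replicate 2 was low for LOC108259970 (102.2 against 274 to 281), and control liver replicate 4 for ca5a (82.4 against 103 to 105).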

How the results depend on the processing

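No member was called for diet by edgeR under TMM, and this held when any 1 library was left out. DESeq2 called 1 member in high-frass against low-frass intestine and 1 in high-frass against control liver, and with no filter edgeR called 1 in low-frass against control liver, 10 in high-frass against control liver and 2 in high-frass against low-frass liver. The 20 members lower in high-frass liver at an unadjusted p under 0.05 became 31 with no filter, 12 with at least 10 counts in every library, 10 with a replicate block, 8 with the letter of the pool code as a term, 9 with all 12 livers, 9 with low-frass liver replicate 3 put back, and 5 to 28 with 1 library left out. The letter term and the livers put back singly were chosen after seeing the data, as was this count; the cause of these changes was not tested. The replicate block changed no diet call.

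The tissue calls, 56 toward liver and 55 toward intestine, became 32 and 143 with library totals and 17 and 11 with at least 10 counts in every library, where fewer transcripts were tested. They were 58 and 48 with the pool code as a replicate block, and 51 to 60 and 55 to 62 with 1 library left out. Library totals turned the log2 difference of LOC108256496 (-1.26), LOC108266361 (-1.85), LOC108259878 (-0.56), LOC108260310 (-0.49), LOC108262992 (-1.69), rsrp1 (-1.93), LOC108270929 (-1.86) and cirbpa (-1.89). Near 0, rsrp1 also turned to -0.0209 with DESeq2, -0.0194 with DESeq2 size factors, -0.0361 with no filter, -0.147 with at least 10 counts in every library, -0.127 with the replicate block and -0.125 with all 12 livers. LOC128635300 turned to 0.0322 with control libraries only and 0.00934 with all 12 livers. With 1 library left out the log2 differences ran from -0.149 to 0.192 for rsrp1, -0.116 to 0.0525 for LOC128635300, -0.172 to 0.251 for LOC108270929 and -0.111 to 0.239 for cirbpa. Over 349 values of single transcripts under settings other than leaving out a library, 321 kept direction and call, 16 turned and 12 were newly called. Of those that turned, LOC108260310 and LOC108259878 were called with TMM and not with library totals. Of 723 values with 1 library left out, 673 kept direction and call, 39 turned and 11 were newly called.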
